A study of Mus musculus with 48 samples.

Results

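The comparison described here is that of heterozygous 7qF3 deletion with wild type in mouse cortex. Its members are the cortex libraries of the study, 8 labelled deletion and 8 labelled wild type, 16 of 48 libraries in all. They were chosen by the tissue and genotype in their labels. The remaining libraries came from the striatum and cerebellum of the same 16 animals. Each genotype held 4 males and 4 females on a mixed C57BL/6N:129Sv background, and no other allele or treatment is named. The labels call the genotype 16p11.2 Deletion, after the human region to which the mouse interval is syntenic. The field for age holds a date that differs between males and females, so age is not given and the sexes cannot be told apart from the dates. The labels do not say whether deletion and wild-type animals were littermates. Each library stands for 1 animal, and p-values measure the spread between these libraries. That spread includes dissection and library preparation, which cannot be told apart from differences between animals.

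The 16p11.2 region is a dosage-sensitive stretch whose loss or gain recurs in people with autism, intellectual disability and other conditions. Its genes are diverse: kinases and their adaptors, chromatin and transcription factors, synaptic and membrane proteins, and metabolic enzymes. Where a gene has no dosage compensation, loss of 1 of 2 copies is expected to leave its transcript near the level that the other copy gives. A log2 fold change of -1 stands for that level in the text below.

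The deleted interval was taken as the annotated stretch from Slx1b to Mylpf on chromosome 7, 126689468 to 127214298 (GRCm38, 524.8 kb). The ends of the deletion are not stated in the labels, so this is an assumption. Of its 54 genes in the count table, 42 had at least 1 count in cortex and 12 had none. The filter on low counts kept 30, of which 27 were protein coding and 3 were of other types. The other 24 were not tested, and the most abundant of them in mean count had 0.326 CPM (counts per 1e+06 gene counts). These included Prrt2, a presynaptic protein, Qprt, an enzyme of NAD synthesis, and Spn, a leukocyte surface protein. Prrt2 summed to 68 counts in deletion and 107 in wild type. It overlaps Gm42742 on the same strand, so its count is uncertain.

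To show what a member's regulatory sequence looks like, the RefSeq promoter windows of Taok2 and Bola2 are printed. They were chosen because, of the interval genes, these 2 differed strongly in how their levels varied between libraries, as described with the ribosomal protein genes. The windows of Tyr and a, the 2 genes called outside the interval, follow. Each window runs 5′ to 3′ from 250 bases before to 50 bases after the annotated start (build GRCm38.p6), with CpG dinucleotides in capitals. The positions are chr7:126884918-126885217 on the minus strand (Taok2), chr7:126695750-126696049 on the plus strand (Bola2), chr7:87493463-87493762 on the minus strand (Tyr) and chr2:155013320-155013619 on the plus strand (a).
Taok2: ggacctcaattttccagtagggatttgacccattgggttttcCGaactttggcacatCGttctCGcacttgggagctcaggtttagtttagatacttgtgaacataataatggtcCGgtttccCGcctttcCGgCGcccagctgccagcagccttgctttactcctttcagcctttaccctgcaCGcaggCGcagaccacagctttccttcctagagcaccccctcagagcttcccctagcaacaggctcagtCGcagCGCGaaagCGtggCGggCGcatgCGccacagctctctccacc
Bola2: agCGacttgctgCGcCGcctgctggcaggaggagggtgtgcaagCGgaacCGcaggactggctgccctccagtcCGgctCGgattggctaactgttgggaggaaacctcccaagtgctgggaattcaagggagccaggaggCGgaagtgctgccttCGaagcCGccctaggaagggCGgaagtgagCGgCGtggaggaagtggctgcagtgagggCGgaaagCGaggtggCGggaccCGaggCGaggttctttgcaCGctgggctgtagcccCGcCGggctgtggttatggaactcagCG
Tyr: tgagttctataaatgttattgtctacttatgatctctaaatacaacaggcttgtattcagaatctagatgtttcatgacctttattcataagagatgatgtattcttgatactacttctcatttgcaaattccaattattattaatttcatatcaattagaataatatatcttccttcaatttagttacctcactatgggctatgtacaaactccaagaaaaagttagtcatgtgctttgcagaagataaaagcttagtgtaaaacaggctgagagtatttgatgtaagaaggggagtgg
a: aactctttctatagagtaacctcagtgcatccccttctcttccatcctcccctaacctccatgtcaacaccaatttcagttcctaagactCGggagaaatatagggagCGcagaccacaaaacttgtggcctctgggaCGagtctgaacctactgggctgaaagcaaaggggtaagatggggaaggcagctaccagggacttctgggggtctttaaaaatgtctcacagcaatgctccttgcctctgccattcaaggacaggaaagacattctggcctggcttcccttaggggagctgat
The Taok2 window held 16 CpG and the Bola2 window 22, the Tyr window 0 and the window of a 3. Over 26 windows that matched 20 of the 30 tested interval genes, the median was 22 CpG (0 to 51) and 61.8% GC. Over all 32851 windows of the table the medians were 7 CpG and 52.7% GC. GGGCGG, the core of the GC box bound by Sp1-type factors, was found on either strand in 61.5% of the interval windows and 35.7% of all windows. GGGAGGG, the core of sites bound by MAZ, was in 38.5% and 22.0%, and CATGTG, the core of the M-box bound by MITF in melanocytes, in 11.5% and 14.2%. The Tyr window holds CATGTG, and the Taok2, Bola2 and a windows do not. GGGCGG and GGGAGGG can overlap in a run of G, and a match describes letters only. The interval windows are of genes that passed the filter on low counts, whereas the full set holds genes of any level. The shares are therefore not matched for expression. Some interval windows also share sequence, such as those of Slx1b and Bola2.

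The depth of the 16 libraries was even, from 29557660 to 36507597 gene counts, with 22220 to 23742 genes detected. No 2 libraries were alike within sampling noise: over 120 pairs, the smallest chi-square per degree of freedom was 19.2. Cortical neuron markers had mean levels of 5.52 to 6.37 log2 CPM in the 16 cortex libraries, above the 1.25 to 5.40 of the striatum libraries and the 2.45 to 3.81 of the cerebellum libraries. Striatal neuron markers, however, were as high in the median in cortex libraries (6.40) as in striatum libraries (6.32). Within cortex, 4 wild-type libraries (W807, W808, W813, W814) had striatal marker levels of 3.49 to 4.73, whereas the other wild-type libraries had 6.35 to 6.97 and the deletion libraries 4.96 to 7.43. The 21 striatal markers summed to 1359, 3583 and 7110 CPM in deletion libraries (lowest, median, highest) and to 813.2, 2183 and 4872 CPM in wild type. Of the 21, 0 were at 0 in all cortex libraries, and Isl1 reached 0 CPM in wild type. Counts of called interval genes, Tyr, a and fold changes that changed sign are given with and without these 4 libraries. Unless stated, values of single genes come from all 16 libraries, including calls that may rest on these 4. The part of these 4 in other values was not tested.

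The deleted interval itself followed the labels in each library. Its share of gene counts was 0.155% to 0.270% where the label was deletion (8 libraries) and 0.315% to 0.543% where it was wild type (8 libraries), without overlap. The means were 0.210 ± 0.0428% and 0.437 ± 0.0704% (SD, n = 8). The 2-sided exact permutation test gave p = 0.0001554, the smallest that 8 against 8 libraries can give. The difference of -0.226 percentage points was -0.223 in males alone and -0.230 in females alone.

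Of the 30 interval genes tested, 20 were called lower in deletion cortex and 0 higher. Over all 16877 genes tested, 0.119% were called lower and 0.0119% higher. Fitted values were negative for 30 of 30 interval genes, from -1.86 to -0.76 in log2 fold change (median -1.08). The median over all genes tested was 0.0038. At an unadjusted p under 0.05, 29 of the 30 were lower (all genes tested, either way, 2.03%). The 95% interval of the fold change covered -1 in 29 of 30, all but Gm42742. In 16 interval genes each deletion library lay below each wild-type library, which is 0.0948% of the genes tested: no gene outside the interval did so. Without the 4 wild-type libraries low in striatal markers, 6 interval genes were called, 29 of 30 were negative and the median was -0.88. These 4 were also the wild-type libraries with the highest interval levels, as described with the ribosomal protein genes. DESeq2 called 24 interval genes, adding Ypel3, Tbx6, Kif22 and Gm31749.

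**Figure D1:**
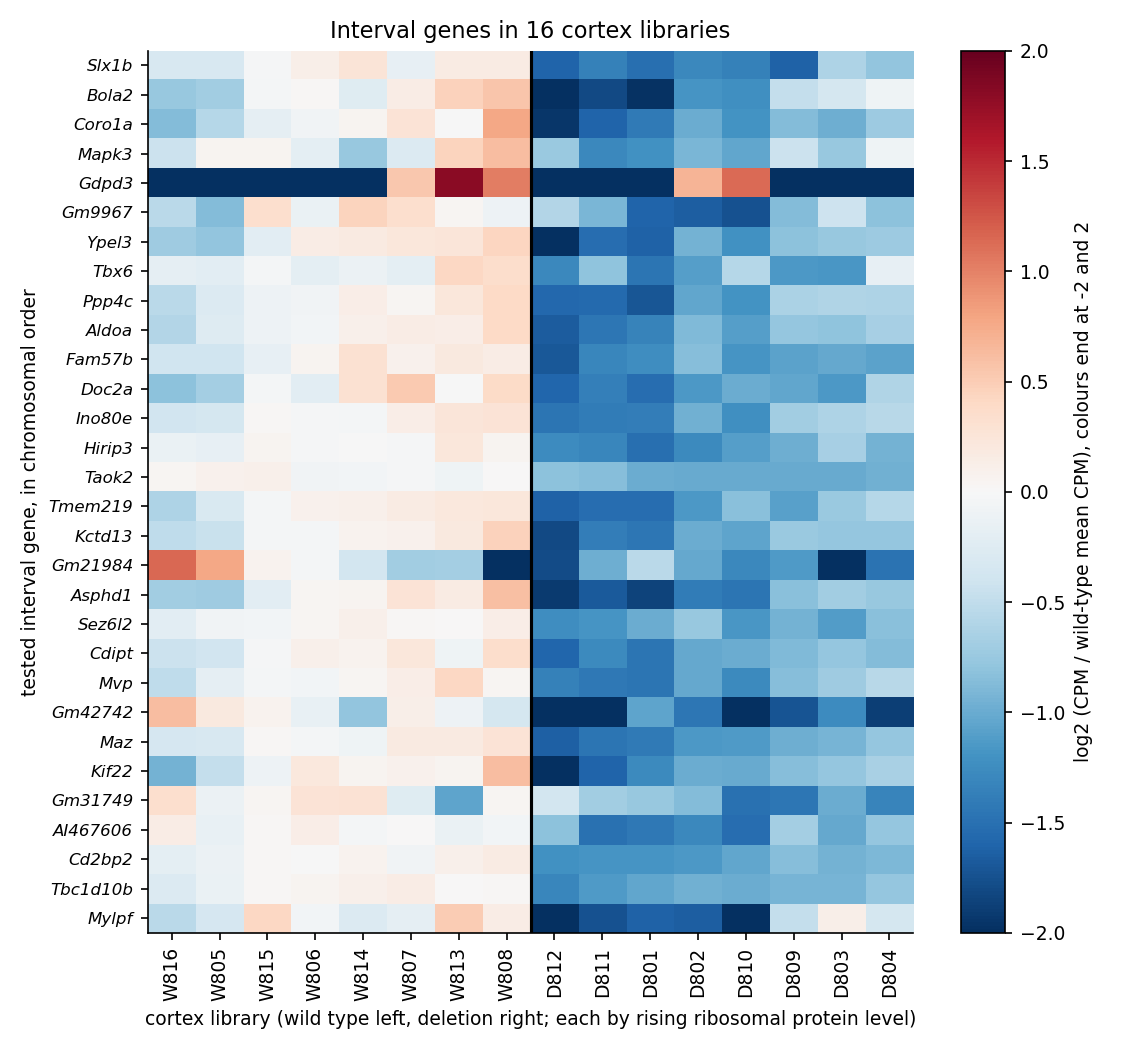
Level of the 30 tested interval genes (rows, in chromosomal order) in 16 cortex libraries (columns, wild type left, deletion right), as log2 of CPM over the wild-type mean. Deletion columns are lower throughout except for Gdpd3 in D802 and D810 and 1 high Mylpf value, and within each genotype most rows become higher from left to right, the order of rising ribosomal protein level.

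Among signalling genes of the interval, Taok2 and Kctd13 gave the clearest pair. Taok2 encodes a kinase that acts upstream of the p38 and JNK MAP kinases and shapes dendrites. Its level was 71.9, 72.8 and 82.0 CPM in deletion libraries (lowest, median, highest) and 136, 144 and 156 CPM in wild type. The groups were far apart and each was narrow, and the log2 fold change was -0.96 ± 0.06 (SE; adjusted p = 2.067e-07). Kctd13, an adaptor that brings RhoA to the cullin-3 ubiquitin ligase, ran from 29.3 over 50.1 to 61.0 CPM in deletion libraries and from 71.6 over 103 to 140 CPM in wild type. The groups did not overlap, although each varied widely, and the log2 fold change was -1.08 ± 0.17 (adjusted p = 0.007799). Ppp4c, the catalytic subunit of protein phosphatase 4, was at 14.7 to 31.5 CPM in deletion and 32.97 to 62.9 CPM in wild-type libraries. It was called lower, at -1.05 ± 0.18 (adjusted p = 0.02859).

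The other signalling genes did not pass the test. Mapk3, the MAP kinase ERK1, was at 80.2, 110 and 186 CPM in deletion libraries and 116, 188 and 301 CPM in wild type. The ranges overlapped widely, with 5 of 8 deletion libraries below every wild-type library, and the log2 fold change was -0.76 ± 0.21 (adjusted p = 0.860). Its 95% interval, -1.19 to -0.32, covered -1. Ypel3, a small zinc-binding protein linked to growth arrest, was at 49.7 to 138 against 131 to 307 CPM and had -1.16 ± 0.22 (adjusted p = 0.0612). Tbx6, a T-box factor of the early mesoderm, was low, at 0.500 to 1.23 against 1.19 to 1.82 CPM, with -0.90 ± 0.20 (adjusted p = 0.231).

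Of the nuclear genes, Maz, Hirip3 and Ino80e were called lower without overlap between genotypes. Maz, a zinc finger transcription factor that binds GC-rich promoters, was at 67.2, 94.1 and 121 CPM in deletion and 164, 206 and 251 CPM in wild-type libraries. The lowest wild-type library was above the highest deletion library by a wide margin, and the log2 fold change was -1.16 ± 0.13 (adjusted p = 2.175e-04). Hirip3, a histone chaperone partner of HIRA, was at 13.5 to 24.1 against 34.0 to 44.7 CPM, with -1.11 ± 0.11 (adjusted p = 6.739e-05). Ino80e, a subunit of the INO80 chromatin remodeller, was at 16.6 to 30.8 against 35.0 to 55.1 CPM (-1.002 ± 0.15; adjusted p = 0.00702). Kif22, a chromosome-binding kinesin of dividing cells, was low at 0.699 to 2.02 against 1.65 to 4.82 CPM, and its -1.097 ± 0.22 missed the threshold (adjusted p = 0.0912).

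Synaptic and membrane genes of the interval that could be tested were all called lower. Sez6l2, a neuronal surface protein of the seizure-related 6 family, was at 166, 189 and 231 CPM in deletion libraries and 338, 396 and 427 CPM in wild type. The gap between the groups was over 100 CPM wide at its narrowest, and the log2 fold change was -1.02 ± 0.08 (adjusted p = 1.734e-06). Doc2a, a calcium sensor of spontaneous and asynchronous transmitter release, was at 18.6, 25.4 and 36.8 CPM against 31.6, 55.2 and 81.0 CPM. The ranges overlapped slightly, with 7 of 8 deletion libraries below every wild-type library (-1.14 ± 0.20; adjusted p = 0.0249). Asphd1, a predicted membrane dioxygenase, had -1.25 ± 0.22 (adjusted p = 0.0297) and Tmem219, a receptor for IGFBP3, -1.09 ± 0.17 (adjusted p = 0.0078). The uncharacterised AI467606 was low but narrow in each group, at 0.616 to 1.10 against 1.61 to 1.96 CPM (-1.09 ± 0.16; adjusted p = 0.00458).

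Among genes of metabolism and cell structure, Aldoa stood out by level. It encodes the glycolytic enzyme aldolase A. Per kilobase of exon it had 733 CPM in wild type, against 123 for Ypel3, 92.8 for Sez6l2 and 87.2 for Mapk3, the next in order. Its counts were 677, 1076 and 1349 CPM in deletion libraries and 1422, 2180 and 2799 CPM in wild type, so the highest deletion library came close to the lowest wild-type library (-1.05 ± 0.15; adjusted p = 0.00458). Cdipt, which makes phosphatidylinositol, was at 60.3 to 106 against 135 to 230 CPM (-1.08 ± 0.13; adjusted p = 9.499e-04). Fam57b, a ceramide synthase-related protein, was at 24.9 to 44.6 against 61.2 to 100.1 CPM (-1.17 ± 0.13; adjusted p = 2.175e-04). Mvp, the major vault protein, had 4.38 to 8.19 against 8.52 to 16.1 CPM (-1.05 ± 0.16; adjusted p = 0.00598).

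Coro1a, an actin-binding coronin of leukocytes and neurons, was at 40.0, 72.7 and 93.4 CPM in deletion libraries and 84.7, 150 and 265 CPM in wild type. Only the highest deletion library exceeded the lowest wild-type library, and the gene was called lower (-1.16 ± 0.20; adjusted p = 0.0263). Gdpd3, a lysophospholipase D, behaved unlike the other members. It was at 0.345 to 11.1 CPM in deletion and 0.992 to 17.7 CPM in wild-type libraries, with medians of 0.591 and 1.10 CPM. It was high in both genotypes in single libraries, D802 and D810 among the deletion and W807, W808 and W813 among the wild-type libraries. Its log2 fold change of -0.87 ± 0.94 turned to 0.10 without W813.

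At the proximal edge Slx1b, a structure-specific endonuclease subunit, was at 7.34 to 14.6 against 17.95 to 26.8 CPM and was called lower (-1.24 ± 0.15; adjusted p = 8.224e-04). Bola2, which takes part in iron-sulfur trafficking, was at 7.49, 16.1 and 34.8 CPM in deletion and 21.8, 36.8 and 54.5 CPM in wild-type libraries. Its range within each genotype was wider than the difference between them, and -1.01 ± 0.30 did not pass (adjusted p = 0.965). At the distal edge Cd2bp2, a spliceosome-associated protein, was at 46.3 to 59.0 against 92.9 to 119 CPM and Tbc1d10b, a Rab GTPase activator, at 37.7 to 54.5 against 77.7 to 103 CPM. Both were called lower, at -1.05 ± 0.08 (adjusted p = 1.734e-06) and -1.003 ± 0.08 (adjusted p = 2.675e-06). Mylpf, a muscle myosin light chain, was low (0.140 to 1.14 against 0.722 to 1.496 CPM) and not called (-1.08 ± 0.36; adjusted p = 0.965).

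Among predicted and non-coding genes, the protein-coding prediction Gm42742 was called lower, at 0.0838 to 0.438 against 0.527 to 1.39 CPM (-1.86 ± 0.28; adjusted p = 0.0078). Its 95% interval, -2.46 to -1.25, lay below -1. It overlaps Prrt2, Pagr1a and Pagr1b on the same strand, so its value is uncertain. The transcripts of other types, Gm9967 (antisense to Gdpd3), Gm31749 (antisense to Kif22) and Gm21984, had -0.99, -0.94 and -1.22, and 0 of these 3 were called. Gm21984 overlaps Kctd13 and Sez6l2 on the same strand and is antisense to Asphd1. Several coding members also overlap an antisense neighbour: Aldoa and Fam57b, Doc2a and Ino80e, Ino80e and Hirip3, Slx1b and Bola2, Bola2 and Coro1a, Kctd13 and Asphd1. Whether counting used strand is not given in the sources used here, so reads of such pairs may have been shared.

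The width of the errors above had a pattern. Within each genotype, the interval genes moved together from library to library, and with them the genes for ribosomal proteins, the structural proteins of the translating ribosome. The median level of the interval genes ran from -1.56 in D812 to -0.72 in D804 (log2, relative to the wild-type mean), and from -0.39 in W816 to 0.27 in W808. The mean level of ribosomal protein genes in the same 4 libraries was 6.46, 8.03, 6.86 and 8.03 log2 CPM. Over the 8 deletion libraries Pearson's r between the measures was 0.993 (permutation p = 9.92e-05) and Spearman's rho 0.952 (permutation p = 0.00114). Over the 8 wild-type libraries r was 0.987 (permutation p = 4.96e-05) and rho 0.976 (permutation p = 3.97e-04). Adjusted over 6 relations examined, these p were 1.49e-04, 0.00171, 9.92e-05 and 7.94e-04. Without the 2 libraries farthest from the median ribosomal level r was 0.988 and 0.944. Ribosomal protein level was chosen after the data were seen, so the adjustment does not cover that choice. Other gene lists followed this order too. In D812, D804, W816 and W808, respiratory chain genes were at 5.46, 6.80, 5.88 and 6.81 log2 CPM. Chromatin genes linked to autism ran the opposite way, at 6.68, 5.75, 6.59 and 5.83. The 4 wild-type libraries low in striatal markers had the highest wild-type ribosomal protein levels (7.57 to 8.03, others 6.86 to 7.53). Their interval levels were the highest as well (0.10 to 0.27, others -0.39 to 0.01). A fit without these 4 libraries cannot tell striatal marker level and ribosomal protein level apart. Ribosomal protein level itself was 7.30 ± 0.61 in deletion and 7.51 ± 0.40 log2 CPM in wild type (SD, n = 8; exact permutation p = 0.399).

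**Figure D2:**
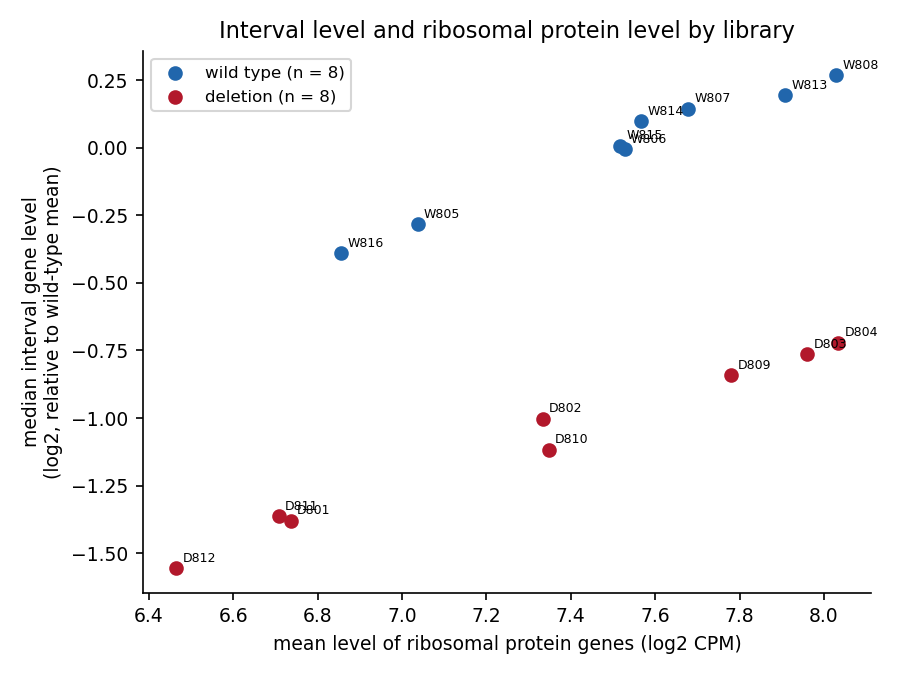
Median level of the tested interval genes in each cortex library (y, log2 relative to the wild-type mean) against the mean level of ribosomal protein genes (x, log2 CPM), blue wild type and red deletion, 8 libraries each. Each genotype forms a rising line, and at any ribosomal level the deletion line lies about 1 log2 unit below the wild-type line.

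The same order of libraries ran through the rest of the transcriptome. The first principal component of the 10710 genes outside the interval with a mean of at least 3 log2 CPM held 61.8% of their variance, and the median interval level followed it with r = 0.992 in deletion and 0.994 in wild type (permutation p = 2.48e-05 and 4.96e-05). Libraries low on it had lower levels of short and of GC-rich transcripts. In D812 the shortest 25% of genes stood 1.01 log2 units lower against the longest 25% than in the wild-type mean, and in D804 0.495 higher. The mitochondrially encoded share of counts went the other way, with r of -0.704 in deletion and -0.862 in wild type against the interval level (permutation p = 0.0329 and 0.00365). The tested interval genes had a median exon length of 2857 bases and 55.8% GC, against 4114.5 bases and 49.7% over all tested genes. Their part in the relation was not tested.

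Members of the interval differed in how closely they followed this order. Bola2 followed ribosomal protein level with r = 0.993 in deletion and 0.976 in wild type, Maz with 0.989 and 0.961, Kctd13 with 0.966 and 0.984, and Aldoa with 0.967 and 0.952 (a description over 8 libraries each). Taok2 went the other way, with r of -0.690 and -0.533, and its values were the flattest given above. Negative in both genotypes were also Gm21984 (-0.413 and -0.857) and Gm31749, the transcript antisense to Kif22 (-0.773 and -0.458), whereas Kif22 itself had 0.915 and 0.926. Gm42742 (-0.654) and AI467606 (-0.336) were negative in wild type and positive in deletion (0.405 and 0.444). Sez6l2 had 0.505 and 0.838.

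With ribosomal protein level as a covariate, an alternative chosen after the data were seen, the errors of the interval genes became smaller and more members were called. The median SE fell from 0.176 to 0.0851 in log2 units, and it was lower than before in 28 of 30 members. The genes called lower became 24 of 30, with 0.166% called either way over all genes. The added ones were Bola2 (-0.83 ± 0.06; adjusted p = 7.452e-07), Ypel3 (-0.97 ± 0.09; adjusted p = 2.389e-05), Kif22 (-0.93 ± 0.12; adjusted p = 0.00113) and Gm31749 (-1.08 ± 0.19; adjusted p = 0.0256). The median over the members was -0.97. The 95% interval covered -1 in 27 members, and the exceptions were Bola2 (-0.95 to -0.70) and Ino80e (-0.98 to -0.79) above it and Gm42742 below it. Mapk3 stayed uncalled at -0.66 ± 0.17, with a 95% interval of -1.03 to -0.28 (adjusted p = 0.452). With the first principal component in place of ribosomal protein level, 24 members were called and the median was -0.99. Over all genes, 0.166% were called either way in that fit.

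**Figure D3:**
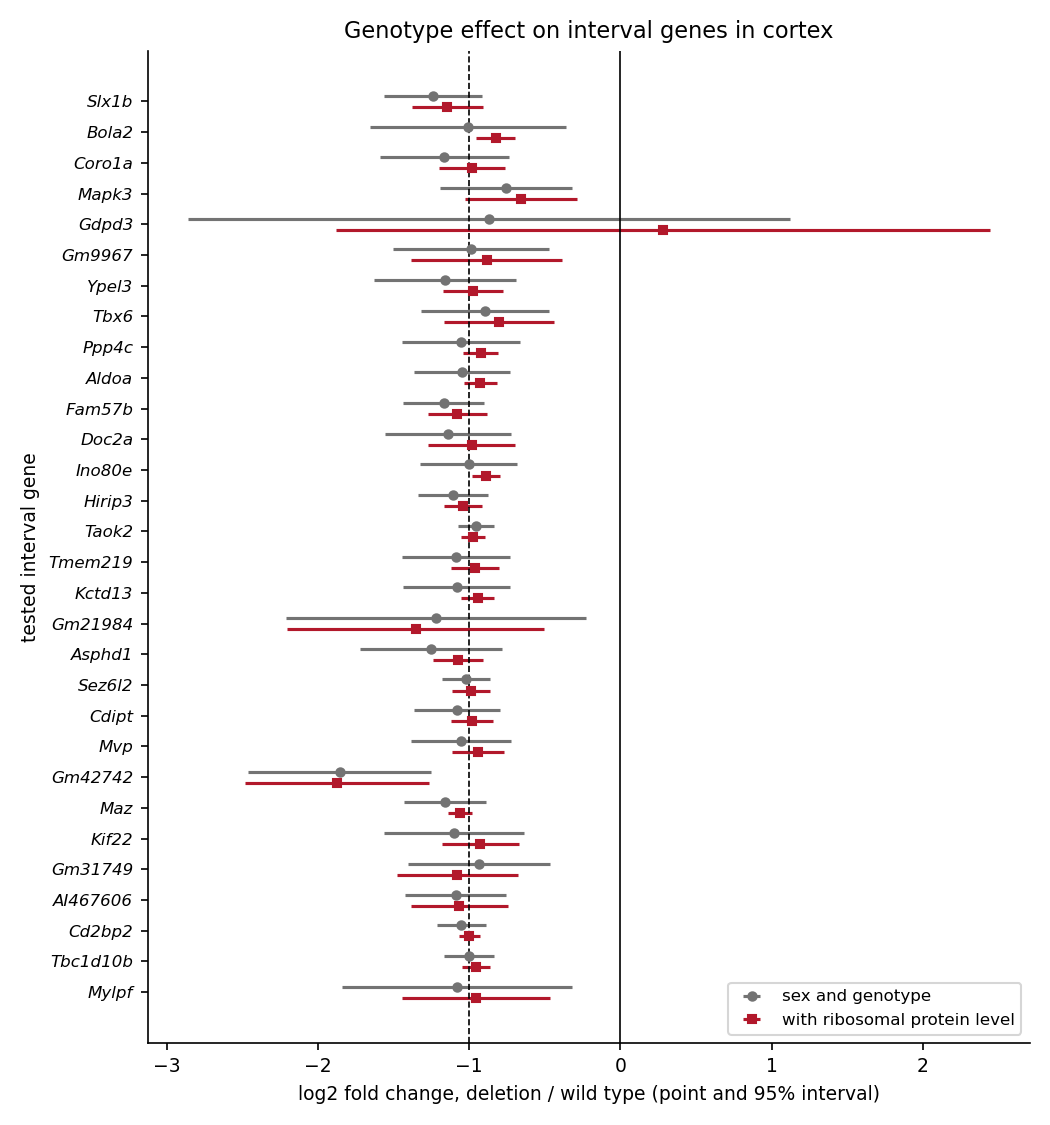
Log2 fold change of each tested interval gene, deletion over wild type, with its 95% interval (x), from the fit with sex and genotype (grey circles) and from the fit that adds ribosomal protein level (red squares); the dashed line marks -1. Most intervals narrow with the covariate and stay on or near -1, while those of Gdpd3 and Gm42742 do not narrow.

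The genotype effect on the interval was compared between sexes and tissues by tests of the difference itself. With each sex fitted alone, 30 of 30 members were negative both times (medians -0.99 for males, -1.14 for females). The interaction with sex was called for 0 of 30 members and 0 of 16877 genes (0% called) by edgeR, with 257 genes at an unadjusted p under 0.05. DESeq2 called 0 as well. Gm42742 had the smallest interaction p among the members, with -1.33 in males and -2.46 in females (difference 1.12, 95% interval 0.05 to 2.20; adjusted p = 0.9996). In 1 fit of all 48 libraries, the effect in cortex differed from that in striatum for 0 of 34 interval genes and 0 of 18531 genes (0% called), with 343 genes at an unadjusted p under 0.05. Against cerebellum it was 0 of 34 and 0 of 18531, with 234. The median difference over the interval was -0.01 against striatum and -0.02 against cerebellum. Doc2a had -1.15 in cortex, -1.13 in striatum and -0.27 in cerebellum, and its difference from cerebellum was not called. These tests miss the threshold and do not show that the effects are equal.

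Outside the interval, 2 of 16847 genes were called (0.0119%), both higher in deletion cortex. They were Tyr and a, 2 pigmentation genes. Tyrosinase, the product of Tyr, makes the melanin precursor in melanocytes, and a encodes agouti, a signal that shifts hair pigment to yellow. Tyr lies far from the interval on the same chromosome, 7 (87424771 to 87493512, minus strand) and a on chromosome 2 (154791402 to 155051012, plus strand). The 8 deletion libraries had 333 to 439 Tyr counts, while the wild-type libraries had 2, 2, 2, 1, 0, 0, 1 and 15. Only W816 had more than 2 wild-type counts. As levels, deletion libraries were at 10.4, 11.1 and 12.8 CPM (lowest, median, highest), with an SD of 0.841 CPM. The log2 fold change was 7.02 ± 0.51 (adjusted p = 1.734e-06) and the ratio of summed counts 132 (95% exact interval 87.8 to 209, counting error only). Without W816, which held 15 of the 23 wild-type counts, the ratio was 330.4 (167.5 to 766).

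The gene a had 14 to 78 counts in deletion libraries and 0 or 1 in each wild-type library. D801 had the fewest and D804 the most, so a varied over 5-fold among deletion animals where Tyr did not. Its log2 fold change was 6.10 ± 0.52 (adjusted p = 1.092e-05), and the ratio of 342 to 4 summed counts was 86.7 (33.6 to 320). Raly, Eif2s2 and Gm14226 lie within its annotated reach, which makes its count uncertain. Fitted fold changes of such genes depend on the prior count of the fit. In 1 fit of all 48 libraries, Tyr and a were also called higher in striatum and cerebellum of the same animals. Tyr had log2 fold changes of 7.05 and 10.3 there, and a had 3.06 and 3.13. Of the other genes of the pigment pathway list, 0 of 11 tested were called (0.0119% over all genes outside the interval). Without the 4 wild-type libraries low in striatal markers, Tyr and a were called again, at 6.27 (adjusted p = 4.075e-04) and 5.62 (adjusted p = 0.00661). In females alone Tyr was not called (6.53; adjusted p = 0.121), and in males alone a was not (7.09; adjusted p = 0.0690).

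**Figure D4:**
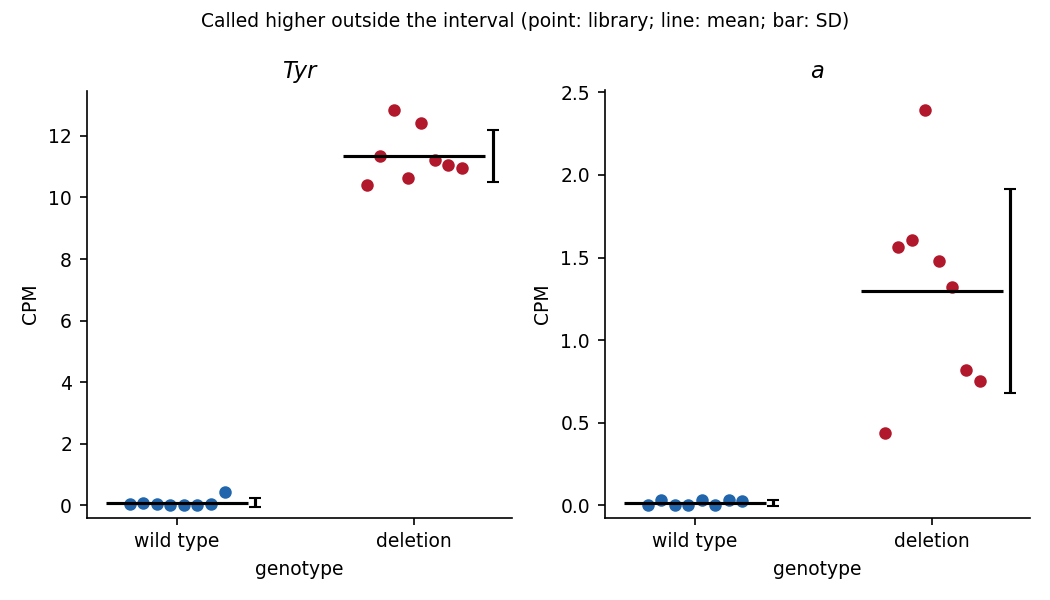
CPM of Tyr (left) and a (right) in each cortex library (points), with the group mean (line) and SD (bar). Each genotype has 8 libraries, and the linear axes start just below 0. Deletion libraries lie between 10.4 and 12.8 CPM for Tyr and between 0.438 and 2.39 CPM for a, and no wild-type library exceeds 0.433 CPM for either.

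Beside the interval, no gene passed the test. Sept1, which starts 0.1 kb beyond the distal end, was at 2.01 to 4.08 against 2.56 to 4.94 CPM (-0.28 ± 0.21), and Zfp553 and Zfp771, 18.8 and 30.0 kb beyond it, had 0.06 ± 0.06 and -0.27 ± 0.34. On the proximal side Sult1a1, a sulfotransferase at 13 kb, had -0.26 ± 0.19 and the antisense transcript 2510046G10Rik at 39.9 kb 0.00 ± 0.30. Sgf29, a chromatin reader of the SAGA complex at 16.5 kb, had -0.53 ± 0.16 (adjusted p = 0.965). Within 2 Mb on either side, 0 of 80 tested genes were called, 4 were lower and 2 higher at an unadjusted p under 0.05, and the median was -0.04. These 6 are 7.5% of the 80, where 1.86% of all genes outside the interval had such a p. The share depended on the window, with 4.62% of 65 genes within 1 Mb and 6.61% of 121 within 5 Mb. The difference from the share over all genes was not tested. Of the 6 nearest genes named here, 0 passed the test.

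Sgf29 was at 8.55, 11.9 and 15.5 CPM in deletion libraries and 11.7, 16.7 and 25.1 CPM in wild type, with overlapping ranges. With ribosomal protein level as a covariate it was called lower, at -0.39 ± 0.07 (adjusted p = 0.0227). Over fits that left out 1 library each its adjusted p ran from 0.0145 to 0.0904, and the call was lost without D802, D803, D804, D809, D810, D811 or W814. Zfp263, a zinc finger gene on chromosome 16, was the other gene called lower in that fit (-0.18 ± 0.03; adjusted p = 0.0387), and it kept its call (adjusted p = 0.0403) without W808 but lost it without any other library (up to 0.177).

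**Figure D5:**
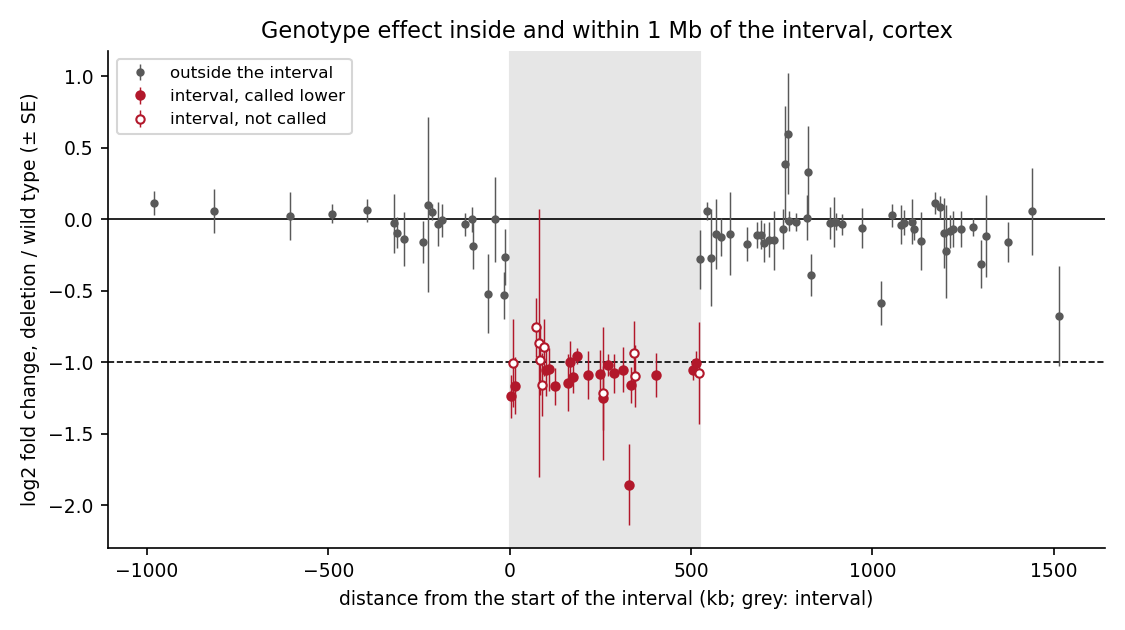
Log2 fold change with its SE (y) of tested genes by distance from the start of the interval (x, kb), grey points outside, red points inside the shaded interval (filled called lower, open not called). Inside, values cluster around -1, and from the first gene on either side values lie between -0.68 and 0.60.

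After Tyr and a, the genes of smallest p outside the interval missed the threshold. Higher in value were Apold1, an endothelial early-response gene, at 3.62, 7.83 and 9.86 CPM in deletion and 2.94, 3.78 and 5.38 CPM in wild-type libraries. In 6 of 8 deletion libraries it exceeded every wild-type library (0.88 ± 0.21; adjusted p = 0.362). Kctd21, a further KCTD adaptor, was at 21.6 to 24.9 against 16.3 to 21.8 CPM (0.29 ± 0.07; adjusted p = 0.551). Mpeg1, a macrophage perforin-like gene, and Ddit4, a stress-induced inhibitor of mTORC1, had 0.69 ± 0.20 and 0.40 ± 0.12, with an adjusted p = 0.965 for both. Amer2 (0.66), Depp1 (1.18), Scgn (2.14) and Sp7 (0.98) complete the list.

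Lower in value were Pyroxd2, a mitochondrial oxidoreductase-like gene, at 4.21, 5.44 and 8.69 CPM in deletion and 6.77, 9.50 and 13.9 CPM in wild-type libraries. In 7 of 8 deletion libraries it lay below every wild-type library, and D810 was the exception (-0.84 ± 0.18; adjusted p = 0.160). It was called without D810. Xdh, which makes uric acid, had -0.84 ± 0.20 (adjusted p = 0.458) and Xlr3a, one of several near-identical X-linked copies, -1.65 ± 0.40 (adjusted p = 0.448). Ctf1, the cytokine cardiotrophin 1 at 498 kb beyond the interval, had -0.59 ± 0.15 (adjusted p = 0.709). Slc27a5 (-0.64), Scd3 (-0.78), Nemp2 (-0.32), Gm33027 (-0.66), AW495222 (-0.62) and Gm37999 (-1.47) complete the list. At an unadjusted p under 0.05, 183 genes outside were lower (1.09%) and 131 higher (0.778%). DESeq2 called 4 higher and 6 lower outside the interval, among them Apold1, Kctd21, Pyroxd2, Xdh and Xlr3a.

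Genes that work with interval products were then counted from lists. Over all genes outside the interval 0.0119% were called, so 0 calls in a list is near that share and is not a result about its members. Of 32 genes of the ERK cascade, in which Mapk3 acts, 0 were called, 23 were positive and the median was 0.09 (all genes 0.0038). Map2k1, the kinase directly above Mapk3, had 0.15 ± 0.07. Of 17 genes around cullin-3 and RhoA, where Kctd13 acts, 0 were called (median 0.04), and Kctd10, a paralogue of Kctd13, had 0.07 ± 0.06. Of 18 glycolysis genes, 0 were called (median 0.0017), of 24 transmitter release genes 0 (median 0.04) and of 19 INO80 and Maz partners 0 (median 4e-04). Doc2b, the paralogue of Doc2a, had 0.56 ± 0.31 (adjusted p = 0.965).

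Lists of activity, receptors and disease genes held no called gene either, which is again near the 0.0119% called over all genes outside the interval. The immediate early list had 26 of 30 members positive (median 0.24), GABA receptors in 16 of 17 (median 0.19), glutamate receptors in 17 of 22 (median 0.10) and chromatin genes linked to autism in 20 of 22 (median 0.13). Ribosomal protein genes were negative in 75 of 76 (median -0.17) and respiratory chain genes in 93 of 96 (median -0.11). Cholesterol genes were positive in 21 of 24 (median 0.10), with Sqle, squalene epoxidase, at 0.17 ± 0.07. Members of 1 list share libraries and the order described above, so these counts are not independent evidence of a direction.

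Cell type markers were counted in the same way, with 0 called in each list (0.0119% over all genes outside the interval). Medians were 0.16 for deep-layer neurons (13 of 16 positive), -0.07 for upper-layer neurons and for cortical identity (4 of 14 positive in each), 0.15 for interneurons, -0.02 for astrocytes, 0.0035 for oligodendrocytes, 0.09 for microglia and 0.0081 for vascular cells. Striatal neuron markers were positive in 21 of 21 (median 0.36), with Penk, which encodes enkephalin, at 0.69 ± 0.54. Without the 4 wild-type libraries low in these markers, Penk had -0.06. Blood genes were positive in 6 of 6 (median 0.74) and choroid plexus and ependymal markers negative in 9 of 14 (median -0.49), both varying widely between libraries. In bulk tissue, a different share of a cell type and a different amount of RNA per cell cannot be told apart. Of 33 library measures besides the interval share, none differed between genotypes after adjustment by the exact permutation test (lowest adjusted p = 0.880). The lowest raw p was that of cholesterol genes (0.0365), at 5.27 ± 0.09 in deletion and 5.16 ± 0.10 log2 CPM in wild type (SD, n = 8).

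The precision of the fit sets what could be seen outside the interval. Of the 16847 genes outside, 61.6% had a 95% interval that lay within a 1.5-fold change in either direction, and 87.5% within a 2-fold change. The share within 1.5-fold was 82.9% for genes over 100 CPM, 77.7% for 10 to 100 CPM, 43.7% for 1 to 10 CPM and 10.4% under 1 CPM. For the remaining genes, a change larger than the bound was not excluded by the interval.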

How the data were processed

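RNA from cortex of 16 mice was sequenced after stranded mRNA library preparation, per the labels' protocols. The authors deposited raw read counts, 1 whole number per gene and library; FastQC 0.10.1, STAR 2.4.2a, Picard and SAMtools, and the builds GRCm38 and mm8, are named in the submitters' processing notes without their roles. The counting tool is not given in the sources used here, nor is its use of strand. Of 47161 features, 92 spike-ins, which took 0.0614% to 0.860% of counts in cortex libraries, were left out, and 46488 of 47069 genes matched GENCODE vM21 (GRCm38); the other 581 took 0.106% of counts.

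For deletion against wild type, edgeR 4.0.16 (R 4.3.3) was run with its robust quasi-likelihood test, TMM factors, the tool's filter on low counts by genotype, terms for sex and genotype, 2-sided, Benjamini-Hochberg adjustment over all genes tested and a threshold of 0.05. DESeq2 1.42.0, other scalings, filters, covariates and subsets of libraries were alternatives. CPM use TMM-scaled library sizes, and log2 levels a prior count of 2. The SE is the absolute log2 fold change divided by the square root of F; intervals are 95%. Single values per library were tested by exact permutation over 12870 splits. Scripts were tested on simulated data. Tissues were compared in 1 fit of 48 libraries. Animal numbers pair the tissues, since 1 number is 1 animal in the labels; same-animal deviations had median correlations of 0.436 (striatum) and 0.535 (cerebellum), against -0.074 and -0.022 for other animals of the same genotype.

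Named genes were all tested interval genes, genes called outside, the 10 of smallest p in each direction with at least 1 CPM in 1 genotype, the 3 nearest tested genes on each side, and 2 of smallest p per list, of which the text gives a part. Members, lists and the 4 libraries low in striatal markers were chosen with earlier results of these data known.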

Additional observations from a re-analysis of the deposited data

Results flagged for a closer look

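Of 176 groups of 8 libraries examined, 11 had a library that lay apart from the others by the size of its gap to the next, 6.25%, where chance gives about 1 in 20. Values are log2 CPM unless stated, and their causes were not tested. Among interval genes, Gm21984 was at -3.49 in W808 (nearest library -1.06) and Gm31749 at -0.63 in W813 (nearest 0.13). Tyr stood at -1.02 in W816, the wild-type library with 15 counts (nearest -3.02). Of other named genes, Amer2 was at 3.24 in W816, Pyroxd2 at 3.13 in D810, Slc27a5 at -0.21 in W805 and Zfp553 at 4.33 in W816. The mitochondrially encoded share of counts was 6.32% in D811 (nearest 4.44%). The mean level of thalamic markers was 3.99 in D802, that of hippocampal markers 5.23 in W813 and that of meningeal markers 4.10 in W813.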

How the results depend on the processing

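The 20 interval genes called lower became 6 without the 4 wild-type libraries low in striatal markers, 1 in males alone and 5 in females alone, settings with fewer samples; it was 14 to 24 under the other settings and 16 to 22 with 1 library left out. Genes called higher outside, 2 at first, were 4 by DESeq2, 1 with at least 1 CPM in 8 libraries, 1 in males alone and 1 in females alone, and 2 to 3 with 1 library left out. Genes called lower outside, 0 at first, were 6 by DESeq2, 2 with ribosomal protein level and 2 with the first principal component as a covariate, 1 in 1 fit of 48 libraries and 0 to 1 with 1 library left out (Pyroxd2 without D810). Within 2 Mb of the interval the count of 0 became 1 with ribosomal protein level and 1 with the first principal component (Sgf29 in both). These 2 covariates were chosen after seeing the data. For the tissue differences the replicate block by animal gave 0 calls against striatum and 0 against cerebellum, so the pairing changed no call; genes at an unadjusted p under 0.05 became 603 and 486.

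Of 3207 values of named genes under alternatives, 3034 kept direction and side of the threshold. Of the rest, 100 lost and 33 gained the call, and 40 changed sign. Many of the 40 were of genes with an SE above their value, such as Gdpd3 and 2510046G10Rik. Emx1 (-0.59 ± 0.30) and Nrn1 (-0.23 ± 0.16) had a smaller SE. These genes changed sign only without the 4 wild-type libraries low in striatal markers. The causes were not tested. Without the 4 wild-type libraries low in striatal markers, log2 fold changes became 1.39 (Gdpd3), 0.28 (2510046G10Rik), 0.22 (Zfp771), 0.0195 (Bcl11a), 0.35 (Folr1), 0.0597 (Emx1), 0.0591 (Nrn1), -0.0293 (Pdlim5), 0.0813 (Grm2), 0.0051 (Actr8), -0.0118 (Pdgfra), -0.0632 (Penk) and -0.0933 (Tac1). With striatal marker level as a covariate they became 0.42 (Gdpd3), 0.038 (2510046G10Rik) and -0.0799 (Tac1), with ribosomal protein level 0.28 (Gdpd3), 0.12 (2510046G10Rik) and -0.0121 (Gabrb2), and with the first principal component 0.22 (Gdpd3) and 0.10 (2510046G10Rik). In males alone they became 0.0184 (Bcl11a), 0.24 (Enpp2) and 1.08 (Folr1), and in females alone 0.0892 (2510046G10Rik), -0.0032 (Zfp553) and -0.0073 (Slc47a1). Without sex 2510046G10Rik had 0.0017. With 1 library left out, 2510046G10Rik ran from -0.32 to 0.12, positive in 9 fits. The ranges of Gdpd3 (-1.999 to 0.10), Enpp2 (-0.70 to 0.0333) and Folr1 (-2.16 to 0.67) were positive only without W813.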
